A study of Rattus norvegicus with 6 samples.

Results

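Ptprc, Itgam, Cd68 and Lyz2 are genes by which leukocytes and macrophages are recognized, and their RNA was followed here in macrophages sorted from infarcted rat hearts. The 4 genes were taken by their Ensembl identifiers, out of 33884 rows in the count table. In that order the identifiers are ENSRNOG00000000655, ENSRNOG00000019728, ENSRNOG00000037563 and ENSRNOG00000005825. The pairing of these identifiers with their symbols came with the gene list, since the count table holds no symbols and the reference table used here paired 0 of its identifiers.

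All samples came from the Sprague Dawley strain, and myocardial infarction (MI) had been induced 72 h before the cells were taken. The WT group had 3 libraries and the group labelled Dusp6-/-, called Dusp6-deficient here, had 3 libraries. The Dusp6-deficient rats belong to 1 mutant line made with CRISPR/Cas9, in which an inserted base creates a premature stop codon, so the mutation is present in every cell of the animal and not in macrophages alone. Male rats were used for the MI model by ligation of the left anterior descending artery, without reperfusion. Cells of the digested infarcted tissue were selected by flow cytometry for CD45 (antibody OX-1) and for HIS36, an antibody against rat macrophages. Cells positive for both are called CD45+HIS36+ macrophages. Whether each library came from 1 rat or from pooled rats is not stated in the sources used here, so the p-values measure the spread between these libraries.

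Ptprc encodes CD45, a transmembrane tyrosine phosphatase on nucleated cells of the blood lineage that acts on kinases of the Src family. Itgam encodes CD11b, the alpha chain that pairs with the beta-2 chain CD18 to form the integrin Mac-1, a receptor for complement fragments and for ICAM-1 with which monocytes and neutrophils adhere and engulf. Cd68 encodes a heavily glycosylated membrane protein of late endosomes and lysosomes that is widely used as a macrophage marker. Lyz2 encodes lysozyme, a secreted and granule enzyme that cleaves bacterial cell walls and is abundant in macrophages and neutrophils. After MI, neutrophils and then monocytes enter the infarct, and monocytes become macrophages there. Itgam, Lyz2 and Ptprc are also expressed by neutrophils, so these 3 genes do not tell the cell types apart by themselves. Whether Cd68 does so in these samples was not tested, since no markers of neutrophils were analysed here.

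The bases before each gene's annotated start are shown because all 4 genes are expressed by myeloid cells while 1 of them passed the test between genotypes. The transcription factor PU.1 acts at purine-rich boxes of myeloid promoters, and its core letters GAGGAA were searched on both strands of 250 bases upstream. Capitals mark GAGGAA, or TTCCTC where the match lies on the opposite strand. The sequences are from RefSeq on the build GRCr8, each on the gene's own strand, whereas the reads were counted on rn6 and no coordinate was converted.
Itgam (chr1:192089342-192089591, plus strand): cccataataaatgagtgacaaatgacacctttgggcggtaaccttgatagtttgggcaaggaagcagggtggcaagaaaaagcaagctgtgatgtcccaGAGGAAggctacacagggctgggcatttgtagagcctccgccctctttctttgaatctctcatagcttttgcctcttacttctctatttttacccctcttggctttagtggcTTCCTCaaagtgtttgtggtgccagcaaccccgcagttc
Lyz2 (chr7:54798012-54798261, minus strand): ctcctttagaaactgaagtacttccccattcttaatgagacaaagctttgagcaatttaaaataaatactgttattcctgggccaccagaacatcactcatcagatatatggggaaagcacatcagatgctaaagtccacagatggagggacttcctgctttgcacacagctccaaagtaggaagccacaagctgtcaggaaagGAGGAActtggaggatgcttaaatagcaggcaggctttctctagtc
Cd68 (chr10:54882442-54882691, minus strand): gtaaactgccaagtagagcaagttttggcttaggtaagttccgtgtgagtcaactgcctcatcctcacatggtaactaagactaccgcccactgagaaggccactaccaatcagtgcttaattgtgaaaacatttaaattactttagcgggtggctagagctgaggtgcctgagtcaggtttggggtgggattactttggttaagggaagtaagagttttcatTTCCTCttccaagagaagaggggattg
Ptprc (chr13:52259747-52259996, minus strand): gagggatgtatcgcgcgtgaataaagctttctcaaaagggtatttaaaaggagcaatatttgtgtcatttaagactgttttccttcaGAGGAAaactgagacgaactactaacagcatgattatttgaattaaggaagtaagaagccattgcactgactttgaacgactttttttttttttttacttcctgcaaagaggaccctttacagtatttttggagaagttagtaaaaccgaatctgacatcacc

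GAGGAA occurred in all 4 windows, against 23.3% of 33469 upstream windows of the same length. The Itgam window held 2 matches and each of the other windows held 1. The match nearest the start lay 39 to 34 bases upstream in Itgam, 46 to 41 in Lyz2, 27 to 22 in Cd68 and 163 to 158 in Ptprc. The letters TTGCNNAA, a C/EBP-type pattern found in 9.22% of the windows, occurred 1 time each in Itgam and Lyz2 and were not among the letters of the windows of Cd68 and Ptprc. The AP-1-type letters TGANTCA, found in 6.34% of the windows, occurred 2 times in Cd68 and 0 times in the other windows. The windows of Itgam and Lyz2 both held GAGGAA and TTGCNNAA, with 2 GAGGAA matches in Itgam and 1 in Lyz2. All of these are matches of letters and not measured binding sites, and a link to the levels in the 2 genotypes was not tested.

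Between 12089585 and 17274938 reads were counted on genes per library, and 12756 genes, the 4 identity genes among them, had enough reads for the test. The libraries were scaled with factors between 0.874 and 1.14 by the TMM method, and CPM here means counts divided by the scaled total of the library, in the usual CPM unit. Every pair of libraries of 1 genotype differed by more than sampling noise, with a chi-square statistic per gene of at least 27.6 where about 1 is expected of repeated sequencing. Dusp6-deficient replicate 1 stood apart from its group. On the first principal component, which held 49.2% of the variance, it scored 4.48, against 53.5 and 65.0 for the other two Dusp6-deficient libraries and -49.7 to -35.9 for the WT libraries. It also received the lowest sample weight in limma's voom fit, 0.240, where the other libraries had 0.764 to 1.88. The fold change of each gene and the ratios between genes are therefore given with and without it. The level of Dusp6 itself and lists of markers of other cell types need names for further identifiers and were not analysed here. The genotype labels were therefore not checked. Reads of the 4 identity genes cannot decide the labelled cell type either, since neutrophils also express Itgam, Lyz2 and Ptprc and no marker of another cell type was read.

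All 4 identity genes were read far above the floor of detection in every library, with a lowest count of 1610, for Ptprc in Dusp6-deficient replicate 1. The floor was taken as 3 counts, or 0.174 to 0.248 CPM on the unscaled totals. Sampling of reads alone gave a coefficient of variation of at most 2.49% for any of these values, so the spread described next was far wider than sampling of reads gives. In this bulk RNA, fewer cells of a type and less RNA per cell cannot be told apart. Counts depend on gene length, and no transcript lengths for the counted gene models were used here, so levels are compared between libraries for each gene and not between genes.

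Itgam was the only gene of the 4 that passed the test between genotypes, as lower in Dusp6-deficient macrophages. That call depended on the libraries used, as given below. Lyz2 also had a lower fitted level, without passing the test. WT replicates 1, 2 and 3 had 16019, 13621 and 5425 Itgam reads, which correspond to 951, 787 and 395 CPM. Dusp6-deficient replicates 1, 2 and 3 had 6239, 1870 and 2218 reads, or 357, 151 and 178 CPM. The lowest WT library and the highest Dusp6-deficient library were next to each other, WT replicate 3 and Dusp6-deficient replicate 1. The genotypes did not overlap, which was also so for 34.1% of all genes tested in either direction. Ranked by reads within its library, Itgam stood between place 117 and place 326 in WT and between place 462 and place 1150 in Dusp6-deficient macrophages. A place depends on the reads of all genes in that library and on gene length. It is therefore not a measure of Itgam alone, nor of its level per length against other genes.

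Over 3 libraries a genotype, Itgam averaged 711 CPM in WT with an SD of 286, and 229 CPM in Dusp6-deficient macrophages with an SD of 112. The log2 fold change was -1.64 (standard error 0.409, 95% confidence interval -2.56 to -0.71), a 3.11-fold lower level with an interval of 1.64-fold to 5.91-fold. It passed edgeR's quasi-likelihood test at an adjusted p of 0.0442 (unadjusted p = 0.00318). With that test 8.22% of all genes tested passed an adjusted p of 0.05 in either direction and 2.67% passed it as lower and 5.55% as higher, so 1 of 4 identity genes called is to be read against that background. The split of all called genes depended on the scaling, with 67.5% of them higher under TMM, 55.9% under upper-quartile scaling and 37.5% with no scaling factor. Itgam also exceeded a log2 fold change of 1, as did 2.16% of all genes tested in the lower direction and 3.47% in the higher one, and 302 genes (2.37%) had a more negative log2 fold change. Genotypes that did not overlap were common among all genes, at 34.1% in either direction and 16.3% in the lower one.

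**Figure D1:**
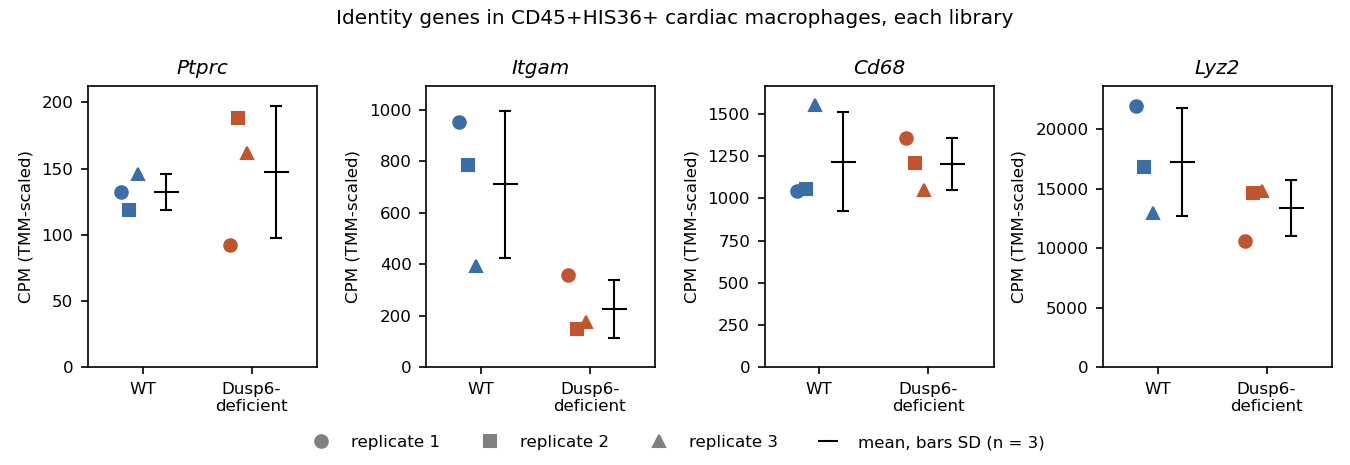
TMM-scaled CPM (vertical axes, starting at 0) of Ptprc, Itgam, Cd68 and Lyz2 in each WT (blue) and Dusp6-deficient (orange) library, with the replicate number as the symbol and the mean ± SD (n = 3) in black. The Itgam points of the genotypes do not overlap, 395 to 951 CPM in WT and 151 to 357 CPM in Dusp6-deficient macrophages, while those of the other genes do. Of all genes tested, 34.1% did not overlap in either direction.

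The call on Itgam rested on the set of libraries used. Without Dusp6-deficient replicate 1, the log2 fold change was -2.16 with an adjusted p of 0.00959 from edgeR's test, in a fit that called 3748 genes, or 28.6% of those tested. Leaving out any one of the other libraries ended the call, with an adjusted p from edgeR of 0.134 without WT replicate 1, 0.111 without WT replicate 2, 0.0528 without WT replicate 3, 0.145 without Dusp6-deficient replicate 2 and 0.184 without Dusp6-deficient replicate 3. The log2 fold changes of these 5 fits lay between -1.95 and -1.39, so the direction and rough size were kept while the call was not. These fits called 7 to 148 genes in all, against 1049 with all libraries, so calls were lost across the whole table and not for Itgam alone. DESeq2 gave an adjusted p of 0.00105 for Itgam and limma's voom fit with sample weights gave 0.00237, with log2 fold changes of -1.67 and -2.07. These methods called 18.5% and 33.0% of all genes tested.

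Ptprc, the gene of the antigen on which the cells had been sorted, did not differ between the genotypes beyond the spread of the libraries. Its reads were 2229, 2051 and 2005 in WT replicates 1, 2 and 3, or 132, 118 and 146 CPM. In Dusp6-deficient replicates 1, 2 and 3 they were 1610, 2333 and 2019, or 92.2, 188 and 162 CPM. The WT values lay together, and the Dusp6-deficient values lay on both sides of them, with replicate 1 below every WT library and replicates 2 and 3 above. The means were 132 ± 13.8 and 147 ± 49.6 CPM (SD over 3 libraries each), a coefficient of variation of 10.4% in WT and 33.7% in Dusp6-deficient macrophages. EdgeR's quasi-likelihood test gave a log2 fold change of 0.16 with a standard error of 0.267 and an adjusted p of 0.722. Its 95% confidence interval, from 0.732-fold to 1.69-fold, includes no change but also differences of moderate size in both directions. Without Dusp6-deficient replicate 1, the log2 fold change was 0.35 (adjusted p = 0.133), and without Dusp6-deficient replicate 2 it was -0.075 (adjusted p = 0.900), both from edgeR's test.

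Cd68 had the smallest fitted change of the 4 genes. WT replicates 1, 2 and 3 had 17518, 18223 and 21307 reads, or 1041, 1053 and 1553 CPM. Dusp6-deficient replicates 1, 2 and 3 had 23674, 14946 and 13093 reads, or 1356, 1207 and 1048 CPM. All 3 Dusp6-deficient values lay within the range of the WT values, whose highest point was WT replicate 3. The mean of the WT libraries was 1215 ± 292 CPM and that of the Dusp6-deficient ones 1204 ± 154 CPM (SD over 3 libraries each). EdgeR's quasi-likelihood test gave a log2 fold change of -0.014 with a standard error of 0.229 and an adjusted p of 0.975, and a 95% confidence interval from 0.691-fold to 1.42-fold. The fold change fitted for Itgam lies outside this interval, and also outside those of Ptprc and Lyz2. The interval of Itgam itself reaches a log2 fold change of -0.71 and overlaps that of Lyz2, which reaches -0.95. The sign was not stable, with a log2 fold change of 0.17 without WT replicate 3 and -0.16 without Dusp6-deficient replicate 1.

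Lyz2 was among the most highly counted genes of every library, at place 2 to 3 in WT and 6 to 8 in Dusp6-deficient macrophages. Its reads were 369319, 291040 and 178028 in WT replicates 1, 2 and 3, which made up 2.34%, 1.77% and 1.47% of all reads on genes. In Dusp6-deficient replicates 1, 2 and 3 the reads were 185712, 181561 and 185012, or 1.08%, 1.28% and 1.31%. On these unscaled shares every Dusp6-deficient library lay below every WT library, which was also so for 23.5% of all genes tested, and 35.0% did not overlap in either direction. After TMM scaling the values were 21936, 16814 and 12973 CPM in WT and 10637, 14659 and 14811 CPM in Dusp6-deficient macrophages, and the genotypes overlapped. WT replicate 1 was then the highest library and Dusp6-deficient replicate 1 the lowest.

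The scaled means of Lyz2 were 17241 ± 4497 CPM for WT against 13369 ± 2367 CPM for Dusp6-deficient macrophages (SD over 3 libraries each). EdgeR's quasi-likelihood test gave a log2 fold change of -0.37, a standard error of 0.259 and an adjusted p of 0.365, with a 95% confidence interval from 0.516-fold to 1.17-fold. With library totals and no scaling factor it was -0.61 (unadjusted p = 0.0217, adjusted p = 0.107 from edgeR's test). That change of scale moved the median log2 fold change of all genes from 0.02 to -0.21, and Lyz2 lay 0.39 below the median of all genes with TMM and 0.40 below it without. Without Dusp6-deficient replicate 1 the log2 fold change of Lyz2 was -0.28 (adjusted p = 0.404 from edgeR's test). It was lower under each of the 14 alternatives and past the threshold under 0 of them. The annotation places Lyc2, a second lysozyme gene, next to Lyz2. In the RefSeq windows the 50 bases after the start of the 2 genes were identical, and the identical run began 39 bases upstream of the start. Reads shared by the pair could have been left out or assigned to either gene, and how such reads were counted is not given in the sources used here, so the Lyz2 values are uncertain to that extent.

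**Figure D2:**
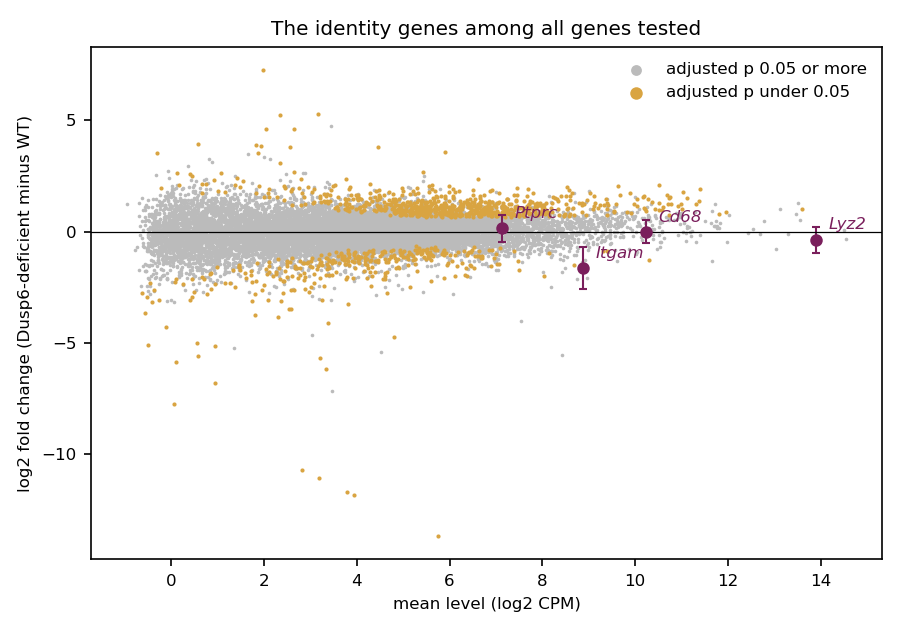
Log2 fold change (Dusp6-deficient minus WT, vertical axis) against mean level (log2 CPM, horizontal axis) for the 12756 genes tested, with genes past an adjusted p of 0.05 in ochre and the identity genes in purple with their 95% confidence intervals. Itgam lies at -1.64 with an interval below 0, and the intervals of Ptprc, Cd68 and Lyz2 cross 0.

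To compare the genes with each other without any scaling between libraries, the ratio of their reads was taken within each library. The counted length of a gene is the same in every library, so a ratio was compared across libraries, while its absolute value has no meaning. Differences between libraries in isoform use or RNA quality were not examined and could also move a ratio. Itgam over Ptprc was 7.19, 6.64 and 2.71 in WT replicates 1, 2 and 3 and 3.88, 0.802 and 1.10 in Dusp6-deficient replicates 1, 2 and 3. WT replicates 1 and 2 stood highest and Dusp6-deficient replicates 2 and 3 lowest, but Dusp6-deficient replicate 1 exceeded WT replicate 3, so the genotypes overlapped. The mean log2 ratio was 2.34 ± 0.78 in WT and 0.59 ± 1.20 in Dusp6-deficient macrophages (SD, n = 3 each), a difference of -1.75 (two-sided exact permutation test, p = 0.2).

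Itgam over Cd68 was 0.914, 0.747 and 0.255 in the WT libraries and 0.264, 0.125 and 0.169 in the Dusp6-deficient libraries, again with WT replicate 3 and Dusp6-deficient replicate 1 in overlap. The difference of the mean log2 ratios was -1.65 (two-sided exact permutation test, p = 0.2). Itgam over Lyz2 differed by -1.30 (p = 0.2 by the same exact test), and here Dusp6-deficient replicate 1 with a ratio of 0.0336 also exceeded WT replicate 3 with 0.0305. In these 3 ratios Itgam had the lower relative level in the Dusp6-deficient group on average, without a separation of the groups. The 3 ratios share the Itgam reads, and their differences largely restate the fold changes given above. They are therefore not separate support for a lower Itgam level. The 3 ratios that leave Itgam out differed by 0.09 for Ptprc over Cd68, 0.45 for Ptprc over Lyz2 and 0.35 for Cd68 over Lyz2, with exact permutation p-values of 0.9, 0.3 and 0.4. Without Dusp6-deficient replicate 1 the differences, given with no test, were -2.43 for Itgam over Ptprc, -1.94 for Itgam over Cd68 and -1.83 for Itgam over Lyz2. Those of the other ratios were then 0.49 for Ptprc over Cd68, 0.60 for Ptprc over Lyz2 and 0.11 for Cd68 over Lyz2. After adjustment over the 6 ratios the p-values ran from 0.4 to 0.9. With 3 libraries against 3 this test cannot give a p under 0.1, and a change of Itgam different from that of the other genes was not shown by it.

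**Figure D3:**
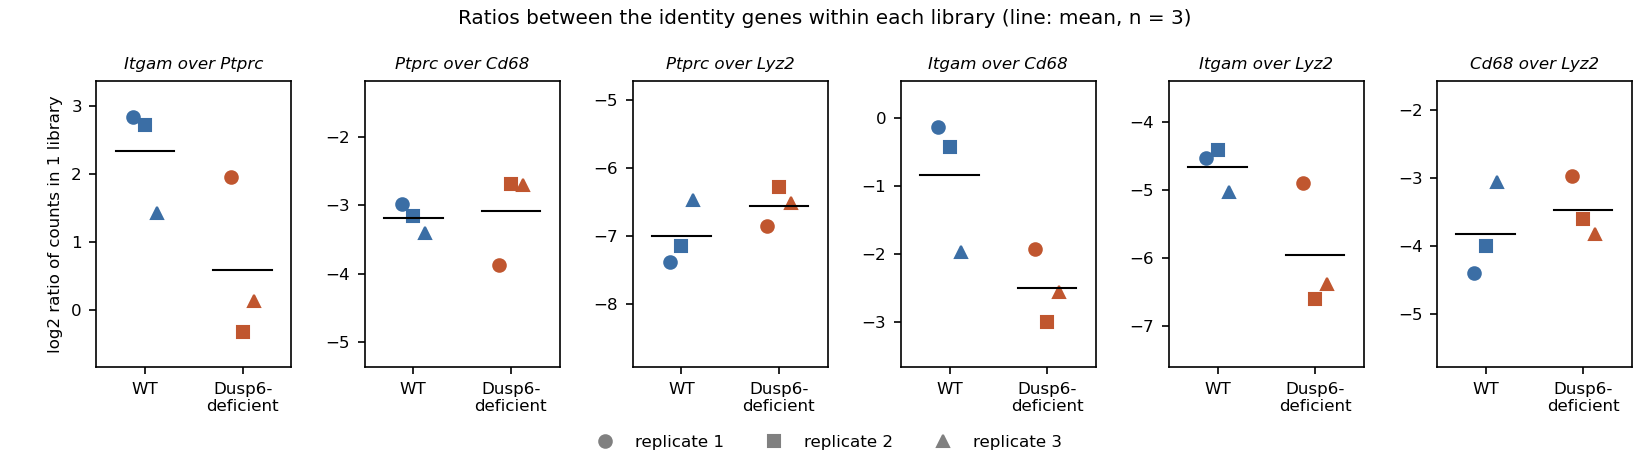
Log2 ratio of the reads of 2 identity genes within 1 library (vertical axes, all spanning the same range) for the 6 pairs of genes, in WT (blue) and Dusp6-deficient (orange) libraries, with the replicate number as the symbol and the mean as a line. In the 3 ratios with Itgam, Dusp6-deficient replicate 1 lies among the WT libraries, above WT replicate 3, and Dusp6-deficient replicates 2 and 3 lie below all others.

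The spread within a genotype differed by gene and came from different libraries. Itgam varied 2.41-fold between its highest and lowest WT library and 2.37-fold between its Dusp6-deficient ones, the widest of the 4 genes in both groups. Cd68 varied 1.49-fold and 1.29-fold, Lyz2 1.69-fold and 1.39-fold, and Ptprc 1.23-fold and 2.04-fold. WT replicate 3 was the lowest WT library for Itgam and Lyz2 and the highest for Cd68 and Ptprc. Dusp6-deficient replicate 1 was the highest of its group for Itgam and Cd68 and the lowest for Ptprc and Lyz2. No single order of the libraries therefore held for the 4 genes.

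**Figure D4:**
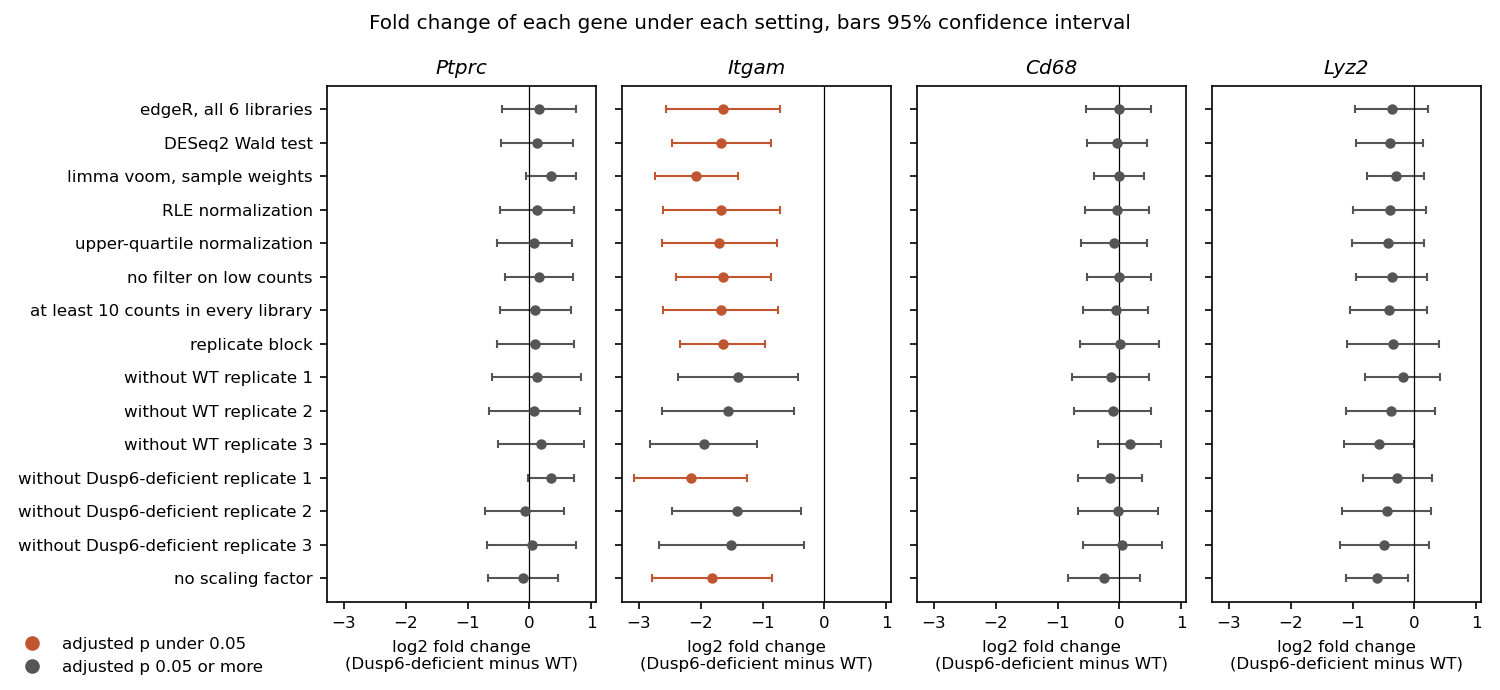
Log2 fold change (Dusp6-deficient minus WT, horizontal axis) of each identity gene with its 95% confidence interval for the edgeR fit and the 14 alternatives (vertical axis), in orange where the adjusted p was under 0.05. Every Itgam estimate is negative, from -2.16 to -1.39, and 9 of its 14 alternatives passed the threshold, while none of the estimates for the other genes did.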

How the data were processed

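RNA of CD45+HIS36+ macrophages was sequenced in 3 WT and 3 Dusp6-deficient libraries, made with the KAPA RNA HyperPrep kit. Per the labels and the paper's methods, the authors trimmed reads with Trim Galore, aligned them to rn6 with HISAT2 and deposited raw read counts per gene from featureCounts 1.5.0-p3. The annotation release, strand setting and treatment of reads with several matches are not given in the sources used here. All 6 columns were matched to samples by their labels.

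Counts were tested in R 4.3.3 with edgeR 4.0.16 (filterByExpr, TMM, quasi-likelihood test of genotype, Benjamini-Hochberg adjustment over 12756 genes, threshold 0.05, without and with a log2 fold change of 1). DESeq2 1.42.0, the test named in the paper's methods, and limma 3.58.1 were alternatives. All were run on simulated counts with known fold changes, to check that the fits return them. The simulated libraries were independent and held no outlying library, so the calls in these data were not tested by them. Standard errors were derived from the F statistic. Floors of 3 counts and counting errors cover sampling only. Log2 CPM for the principal components used a prior count of 2. The alternatives are given with their effects in the closing section. The genes and lists were chosen with earlier results of these data known. The named genes were to be the 4 members, Dusp6, the leading genes of 7 identity lists and of the other cell types' marker lists, and for each member the genes with a symbol of the most similar pattern. Only the members could be paired with a symbol, so the other parts of this rule were not analysed here.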

Additional observations from a re-analysis of the deposited data

How the results depend on the processing

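Itgam was lower under all 14 alternatives, with adjusted p-values from 0.00105 to 0.184, and Lyz2 was lower under all 14 without passing the threshold. Some alternatives changed only the scaling or the filter on the same libraries. For Itgam, edgeR's test gave adjusted p-values of 0.0455 with RLE scaling and 0.0429 with upper-quartile scaling. It gave 0.0410 with a filter of at least 10 counts in every library. Leaving out 1 library gave log2 fold changes from -2.16 to -1.39 for Itgam, -0.075 to 0.35 for Ptprc, -0.16 to 0.17 for Cd68 and -0.58 to -0.19 for Lyz2. Library totals with no scaling factor, added after the data were seen, gave -0.11 for Ptprc. The within-library difference of Ptprc over Cd68 ran from -0.11 to 0.49 when 1 library was left out, also added later, and the other 5 ratios kept their direction.

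Genes past the adjusted p were 708 higher and 341 lower, and with a log2 fold change of 1 they were 442 and 275. DESeq2, the test named in the paper's methods, gave 1297 higher and 1058 lower, and 648 and 649 with the fold change. Limma's voom fit gave 2365 and 1847, and 1164 and 909. No filter on low counts gave 422 lower with the fold change. No scaling factor gave 271 higher and 452 lower, and 170 and 412 with the fold change, so the larger side changed from higher to lower. Leaving out 1 library gave 1 to 2028 higher and 5 to 1720 lower, and 1 to 1083 and 5 to 968 with the fold change. The highest counts were those without Dusp6-deficient replicate 1. The cause was not tested.

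With the replicate block, 307 genes were higher and 190 lower, Cd68 had a log2 fold change of 0.0057 and Itgam -1.65 (adjusted p = 0.0365 from edgeR's test). Same-numbered libraries did not deviate together, with correlations across genes of 0.11, -0.12 and -0.14, so the numbers were not taken to pair samples. The planned counts for 7 gene lists need symbols and were not run. These alternatives were listed with earlier results known. Depth limited none of the 4 genes, and the intervals rest on 3 libraries a genotype.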
